A study of Mus musculus with 247 samples.

Results

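The comparison is between macrophages that lack GPS2 and macrophages that carry it, both measured after 6 h of lipopolysaccharide (LPS). It compares 8 of the 247 samples of the series. These are the 4 RNA-seq libraries of GPS2 knockout (KO) cells with LPS and the 4 of wild-type (WT) cells with LPS. They were chosen by the genotype and agent given in their labels. The other 8 RNA-seq libraries hold the same 2 genotypes without LPS. They entered the same fit and so bear on its filter, scaling and p-values. All come from RAW264.7, a macrophage-like tumour cell line from BALB/c mice, grown in DMEM with 10% FBS. LPS was given at 10 ng/ml. The KO cells are labelled as made with CRISPR and the others as WT. No label says how many edited clones the 4 KO libraries stand for, so a difference between clones and the loss of GPS2 cannot be told apart. Nor do the labels say whether the libraries of a group came from separate cultures. The p-values below measure a spread within groups that is pooled over all 16 libraries, and that spread may be partly technical. For a single gene it can differ from the spread seen in the 2 groups with LPS. After a mean, ± gives the SD of the 4 libraries, and after a log2 change the standard error from the fit.

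LPS is a component of the outer membrane of Gram-negative bacteria. Macrophages bind it through CD14, MD-2 and Toll-like receptor 4. The receptor then signals by one branch through MyD88, which activates NF-kB and MAP kinases and switches on genes of inflammatory cytokines, and by another through TRIF, which leads to interferon-beta and, through its receptor, to antiviral genes. Feedback genes induced in the same hours, among them inhibitors of NF-kB, phosphatases of MAP kinases and the cytokine IL-10, limit the response. GPS2 is a subunit of the corepressor complex of NCoR with HDAC3 and TBL1 or TBLR1, which holds down genes bound by NF-kB, AP-1 and nuclear receptors.

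Each library had 14118488 to 22968591 mapped reads in WT and 12094940 to 17801671 in KO cells with LPS. Values below are reads per 10000000 mapped reads after a trimmed-mean scaling, called normalised reads. They are not divided by transcript length, so levels of different genes do not compare as amounts of RNA. The ranking by linear difference and the sums of markers below do run across genes, and so depend on transcript length as well. Macrophage markers made up 49459 to 59960 summed normalised reads in WT and 71442 to 75794 in KO cells, of which 4 of 8 rose and 2 fell, against 22.1% of all genes tested in each direction. Lyz2, which rose from a mean of 26236 to 39894, was the largest part of this sum, and Spi1 and Fcgr1 fell. Markers of T, B and natural killer cells reached at most 1.02, those of fibroblasts and epithelium 0.712 and those of granulocytes 21.99 in any of the 8 libraries. Of the granulocyte markers 1 of 9 could be tested, and S100a8 went from 9.39 ± 6.36 to 17.5 ± 2.54 (log2 1.02, limma adjusted p = 0.0307, and 1.39 and 0.000659 without WT library 4). The 6 dendritic cell markers, of which 3 are in the table and 1 of 2 tested fell, summed to 181 to 274 in WT and 79.4 to 97.1 in KO cells. Nearly all of this sum was the single gene Xcr1, with means of 206 in WT and 89.2 in KO cells, while Zbtb46 averaged 3.92 and 2.47. None of the 5 mast cell markers is in the table. In bulk RNA, fewer cells of a type and less RNA per cell cannot be told apart.

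Library 4 of WT cells with LPS stood apart from the other 3. Its deviation from their mean had a rank correlation of -0.64 with transcript length over 11791 genes, from a median log2 deviation of 0.87 in the shortest of 10 equal classes of transcripts to -0.80 in the longest. The same medians in the 4 KO libraries with LPS lay between -0.02 and 0.03. Differences that follow length therefore carry this library. Counts over all genes and over the gene lists are given with it and without it. Means and log2 changes of single genes include it unless stated otherwise, and many are not given without it. Between KO libraries the reads of a gene varied little more than sampling allows, with a chi-square per gene of 1.24 to 1.85 in pairs, against 5.205 to 9.51 among WT libraries 1 to 3 and 98.6 to 138 in pairs with WT library 4.

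**Figure D1:**
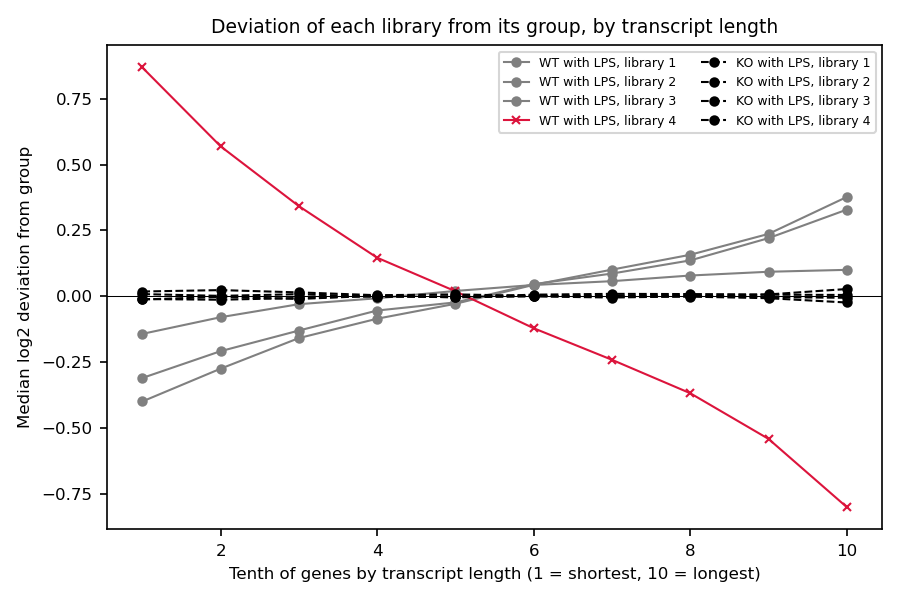
Median log2 deviation of each library with LPS from the mean of the other 3 libraries of its group (vertical axis) in 10 equal classes of transcript length, from shortest to longest (horizontal axis), over all genes tested. WT library 4 falls steadily from 0.87 to -0.80, WT libraries 1 to 3 run the opposite way, since their mean includes it, and the KO libraries stay near 0.

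Gps2 itself (NM_019726, chromosome 11, 69727522 to 69730096, build mm9, as are all gene coordinates from the files) was measured at 420.4, 424, 422 and 496 normalised reads in WT libraries 1 to 4 and at 76.9, 90.3, 98.5 and 95.6 in KO libraries 1 to 4. Every KO library lay below every WT library, and the log2 change was -2.28 ± 0.08 (limma adjusted p = 5.41e-12), or -2.21 without WT library 4. The table gives 1 value per gene and does not show the edited position, so reads from an edited transcript would still be counted. Tbl1x and Tbl1xr1, 2 other members of the corepressor complex, rose. Tbl1x, which encodes the TBL1 subunit, went from 417 ± 209 to 705 ± 19.4 (log2 0.99 ± 0.34), or by 0.47 without WT library 4. Tbl1xr1, the gene of TBLR1, rose by 0.31 with library 4 and by 0.17 without it. Both no longer passed in the fit of only the 2 groups with LPS and in several fits that left out 1 other library. Ncor1 and Hdac3, the gene of the histone deacetylase of the complex, did not pass the test, with log2 changes of 0.48 and -0.07.

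Of 11791 genes tested, 2600 had more RNA in KO than in WT cells and 2603 had less, at a limma adjusted p under 0.05. That is 22.1% and 22.1% of genes, or 44.1% in all. The median log2 change of all genes tested was 0.001. Without WT library 4, 3470 were higher (29.2%) and 3386 lower (28.5%) of 11882, or 57.7% in all. With the 8 libraries without LPS left out of the fit, 1528 were higher and 1598 lower. The counts of every gene list below are set beside these shares of all genes. The lists were chosen with earlier results of these data known, so a share above that of all genes may partly reflect the choice. No list was tested. Called in the same direction in both fits were 2546 higher (21.6%) and 2501 lower (21.2%). Of these, 452 were higher and 467 lower by at least 2-fold, and 39 and 36 by at least 8-fold. The 4 KO and 4 WT libraries did not overlap for 2375 genes that were higher (20.1%) and 2284 that were lower (19.4%). The rank correlation between log2 change and length of the transcript was 0.31 over genes, and 0.08 without WT library 4. The authors' deposited table holds its own adjusted p for the same comparison, under 0.05 for 3318 of these genes, of which 3297 were called here in the direction it gives.

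**Figure D2:**
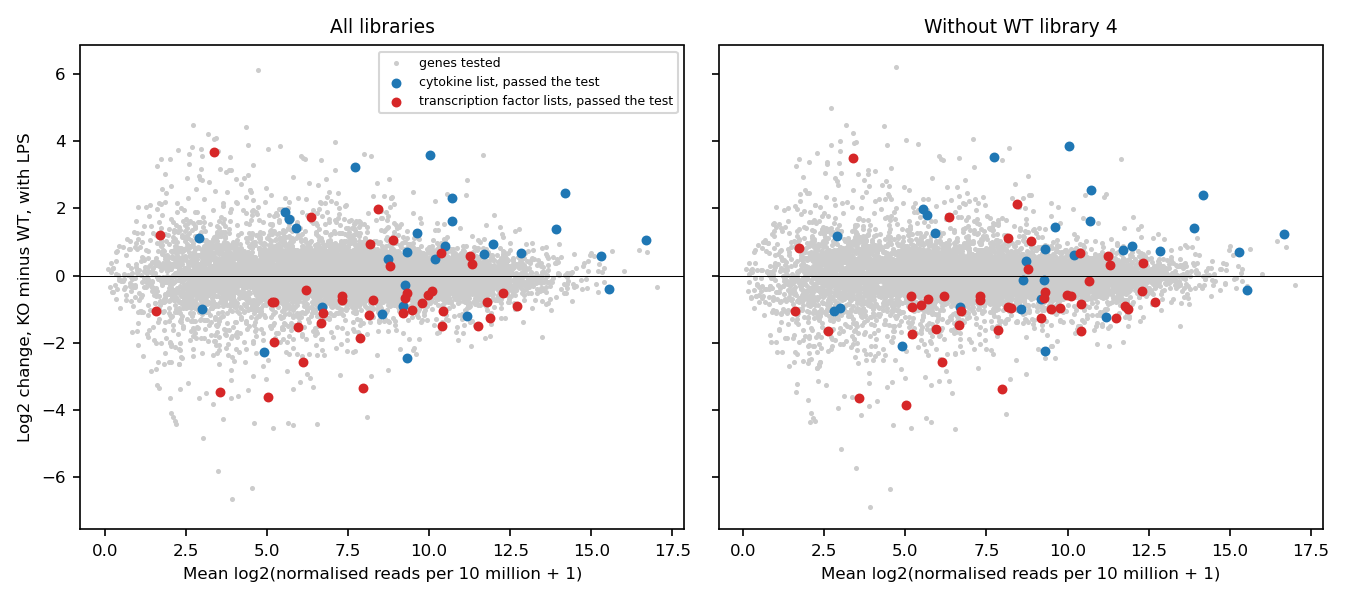
Log2 change, KO minus WT, both with LPS (vertical axis) against the mean log2 normalised reads of the 8 libraries (horizontal axis), 1 point per gene tested, with all libraries (left) and without WT library 4 (right). Blue points are members of the cytokine list and red points members of the AP-1 and other transcription factor lists that passed the test. Most blue points lie above 0 and most red points below it in both panels.

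Genes were ranked among those called in the same direction with and without WT library 4 whose groups did not overlap. For genes named by these rankings, here and below, separate groups are therefore a condition of the choice. By linear difference of means, the 12 with the largest increase were Spp1, Ccl3, Il1a, Lyz1, Il1b, Tnf, Lpl, Lyz2, Cxcl2, Gpnmb, Cybb and Cmpk2. Spp1, the gene of osteopontin, a secreted phosphoprotein, read 57206, 65409, 69752 and 103288 in WT and 149354, 162428, 148209 and 145285 in KO libraries. All 4 KO libraries were above all 4 WT libraries, with WT library 4 nearest to them (log2 1.07 ± 0.13, limma adjusted p = 5.73e-06, 1.25 without that library). Il1a, which encodes the cytokine interleukin-1 alpha, read 7636, 8734, 8569 and 6925 in WT and 43887, 46515, 43335 and 42294 in KO libraries. It was 5.52-fold higher on average in KO cells (log2 2.47 ± 0.20, limma adjusted p = 7.41e-08), and here WT library 4 was the lowest of its group. Lpl, lipoprotein lipase, read 27300.4, 28775, 28258 and 29973 in WT and 42224, 43374, 42243 and 42011 in KO libraries (log2 0.57 ± 0.04), with a narrow spread in both groups. Lyz1 and Lyz2, near-identical lysozyme genes whose reads could be split between them, went from 39746 ± 3765 to 65737 ± 2892 and from 26236 ± 5789 to 39894 ± 1894. Cybb, the membrane subunit of the phagocyte NADPH oxidase, went from 18544 ± 4553 to 28139.8 ± 694 (log2 0.64, or 0.45 without WT library 4), and Cmpk2, an interferon-induced nucleotide kinase of mitochondria, from 26322 ± 3435 to 35478 ± 455.

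The 12 largest decreases by linear difference, ranked among the same genes, were Actb, Mt2, Eef1a1, Il1rn, Ccl9, Cxcl10, Ccl5, Mt1, S100a4, Ldha, Ifitm3 and Rpl8. Of these, 7 lie in the shortest of the 10 length classes, where WT library 4 read high. Mt2, a metallothionein that binds zinc and copper, read 15771, 17309, 18652 and 41532 in WT and 6037, 6159, 5964 and 5873 in KO libraries. The ranking required that KO libraries lie below all WT libraries, and the log2 change was -1.84 ± 0.21, or -1.51 without library 4. Its neighbour Mt1 read 8949, 9719.7, 10292 and 24719.5 in WT and 4721, 4756, 4762 and 4485 in KO libraries (log2 -1.38 ± 0.22, or -1.04). Il1rn, the antagonist of the interleukin-1 receptor, read 53366, 57786, 55084 and 51392 in WT and 41185, 42869, 41000.4 and 40607 in KO libraries (log2 -0.39 ± 0.05, limma adjusted p = 1.78e-05), and WT library 4 was the lowest of its group. Actb, beta-actin, fell by 0.33 on the log2 scale and Eef1a1, a translation elongation factor, by 0.49. S100a4, a calcium-binding protein, went from 18379 ± 7756 to 9836 ± 274, Ifitm3, an antiviral membrane protein, from 17341 ± 6119 to 9207 ± 109, and Rpl8, a ribosomal protein, from 20316 ± 8228 to 12505 ± 58.2. Without WT library 4 these 3 changes were -0.55, -0.63 and -0.37. Rpl8 and Ldha, lactate dehydrogenase, no longer passed in the fit of only the 2 groups.

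Ranked by fold, among those of these genes whose higher group averaged at least 50 normalised reads, the 10 largest increases were Treml2, Nedd9, Pilra, Rbpms, Trem1, Trem3, Sorl1, Csf2, Gpnmb and Slpi. The 10 largest decreases were Adgrl2, Lpar1, Spry2, Shisa3, Scarf1, Gja1, Epop, Fscn1, Dll1 and Mmp14. Nedd9, a scaffold protein of focal adhesions, read 3.05, 4.98, 2.48 and 3.51 in WT and 95.1, 94.3, 98.5 and 89.9 in KO libraries, and the groups lay far apart (log2 4.43 ± 0.21, limma adjusted p = 1.46e-10). Rbpms, an RNA-binding protein, read 6.601, 8.54, 1.49 and 4.39 in WT and 80.8, 78.1, 78.97 and 92.8 in KO libraries (log2 3.90 ± 0.32). Slpi, a secreted inhibitor of proteases, read 68.5, 79.02, 67.3 and 137 in WT and 997, 1051, 992 and 1020.3 in KO libraries, and was 11.5-fold higher in KO cells (log2 3.58 ± 0.18). Fscn1, fascin, which bundles actin, read 118, 130.3, 101 and 100.2 in WT and 3.91, 4.07, 7.52 and 2.87 in KO libraries (log2 -4.39 ± 0.28). Dll1, a ligand of Notch receptors, read 47.2, 50.5, 50.01 and 69.4 in WT and 1.95, 1.36, 2.26 and 1.91 in KO libraries (log2 -4.26 ± 0.20). Epop read 209, 184, 232 and 307 in WT and 11.7, 12.9, 8.27 and 7.65 in KO libraries (log2 -4.40 ± 0.19). In each of these 6 genes all KO libraries were on one side of all WT libraries, WT library 4 included, as the ranking required.

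**Figure D3:**
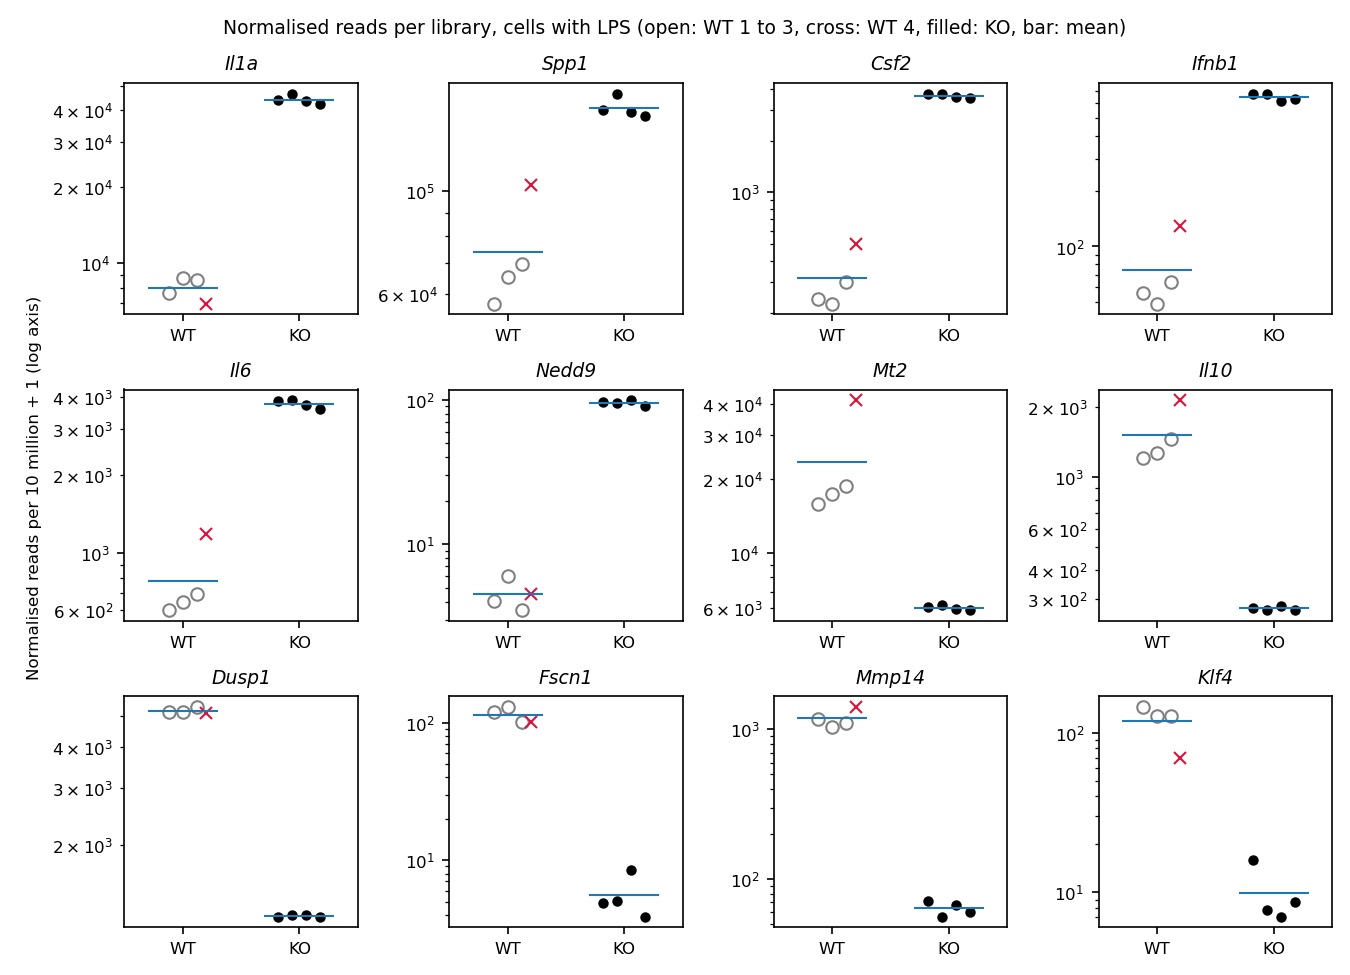
Normalised reads per 10000000 (log axis, value plus 1) of 12 genes in each library with LPS. Open circles are WT libraries 1 to 3, the cross is WT library 4, filled circles are the 4 KO libraries, and bars mark the group means. The 4 KO values nearly coincide in most panels, and none of the 12 genes has overlapping groups.

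Among secreted cytokines, Il1a, Il1b, Tnf, Il6, Csf2 and Ifnb1 were among those higher in KO cells, and Il10, Il15, Il18, Il33 and the antagonists Il1rn and Il18bp among those lower. Of 32 tested secreted cytokines and growth factors, 20 rose and 9 fell (19 and 11 without WT library 4), against 22.1% of all genes in each direction, with a median log2 change of 0.66 (0.75 without it). Csf2, granulocyte-macrophage colony-stimulating factor, read 240.2, 224, 299 and 501 in WT and 3724, 3764, 3594 and 3527 in KO libraries. Ifnb1, interferon-beta, read 54.8, 47.7, 63.4 and 128 in WT and 678, 671, 619.7 and 631 in KO libraries (log2 3.24 ± 0.25, limma adjusted p = 6.49e-08). For both genes WT library 4 was the highest of its group and still below all KO libraries. Il6, a cytokine of the acute-phase response, read 599, 646, 691 and 1182 in WT and 3849, 3877, 3718 and 3593 in KO libraries, with the same order (log2 2.32 ± 0.25, or 2.55 without library 4). Edn1, the vasoconstrictor endothelin-1, went from 949 ± 59.001 to 2921 ± 76.3, Pdgfb, a platelet-derived growth factor chain, from 2928 ± 259.8 to 5571 ± 66.2, and Csf3, granulocyte colony-stimulating factor, from 5817 ± 542 to 9230.1 ± 139. Lta and Ltb, the lymphotoxins, went from 23.6 ± 3.11 to 90.7 ± 12.9 and from 518 ± 142 to 1227 ± 56.1, Hbegf, a ligand of the EGF receptor, from 27.6 ± 5.03 to 90.8 ± 9.81, and Tnfsf15 from 36.1 ± 7.08 to 97.9 ± 9.59. The interleukin-27 subunits Il27 and Ebi3 rose by 0.65 and 0.50 on the log2 scale.

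Areg, another EGF receptor ligand, moved the other way from Hbegf, from 67.3 ± 20.3 to 12.9 ± 2.13 (log2 -2.27 ± 0.22). Il10 read 1211, 1270.05, 1458 and 2141 in WT and 274, 269, 279 and 267 in KO libraries, which lay below all WT libraries (log2 -2.44, or -2.26 without library 4). Il33, an alarmin of the interleukin-1 family, read 3374, 3599, 3719 and 3461 in WT and 1535, 1554, 1509 and 1494 in KO libraries (log2 -1.22 ± 0.30, limma adjusted p = 0.00439). Il18 of the same family went from 829 ± 279 to 425 ± 13.003, and Il18bp, its secreted inhibitor, from 143 ± 4.78 to 74.1 ± 5.35. Within the interleukin-1 gene family, Il1a and Il1b thus rose while Il33, Il18 and Il1rn fell. Il1a (chromosome 2, 129125346 to 129135708) and Il1b (chromosome 2, 129190314 to 129196875) are neighbours, and Il1rn (chromosome 2, 24200891 to 24207011) lies elsewhere on the same chromosome. Il15, which acts on lymphocytes, went from 572 ± 137 to 253 ± 11.3 (log2 -1.14 ± 0.12).

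Chemokines split evenly. Of 18 tested, 8 rose and 9 fell (9 and 9 without WT library 4), which is 44.4% and 50.0% against 22.1% of all genes in each direction, with a median of -0.25 (-0.06). Among those that rose were chemokines for monocytes and neutrophils. Cxcl2, which attracts neutrophils, read 10843, 9787, 10998 and 16262 in WT and 22410.5, 22984, 22249 and 22869 in KO libraries, and Ccl3, an inflammatory chemokine, 68013, 82376, 80288 and 112637 in WT and 136170, 143225, 136434 and 136250 in KO libraries. The KO libraries were above all WT libraries for both (log2 0.95 ± 0.12 and 0.71 ± 0.10). Ccl7 and Ccl12, ligands of CCR2, went from 3549 ± 1755 to 7385 ± 323 and from 503 ± 262 to 1521 ± 81.3, Ccl6 from 120.1 ± 5.12 to 357 ± 12.8, and Ccl17, which attracts T helper cells, from 45.9 ± 23.9 to 167 ± 11.2. By log2 change, among chemokines called in both fits, Ccl17 rose most (1.95), and Ccl24 (-3.38) and Cxcl14 (-2.23) fell most. Those that fell also included ligands of CXCR3 and 1 of CCR4, while Ccl17, another ligand of CCR4, rose. Cxcl10 read 24405, 26469.5, 27558 and 35976 in WT and 16884, 17562, 16692 and 16615 in KO libraries (log2 -0.74 ± 0.09), and Ccl5, which attracts T cells and monocytes, 15046, 18245, 19354 and 27945 in WT and 9564, 9746, 9484 and 9730.4 in KO libraries (log2 -1.03 ± 0.14). Cxcl11 went from 6535 ± 2261 to 2337 ± 99.7, Cxcl16, a transmembrane chemokine and scavenger receptor, from 2253 ± 291 to 706 ± 21.3, and Ccl22, like Ccl17 a ligand of CCR4, from 8072 ± 303 to 3338 ± 44.99.

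Neighbouring chemokine genes moved in both directions. On chromosome 11 the genes Ccl5 (83339281 to 83344020), Ccl9 (83386419 to 83392138), Ccl6 (83401388 to 83406589), Ccl3 (83461345 to 83462880) and Ccl4 (83476086 to 83478185) lie within one cluster. There Ccl5 and Ccl9 fell and Ccl6 and Ccl3 rose. Ccl4 read 19795, 22509, 25038 and 50879 in WT and 24986, 26205, 24901 and 25036 in KO libraries, and WT library 4 was higher than every KO library. Its log2 change was -0.12 ± 0.20 (limma adjusted p = 0.647), and without that library 0.18 (adjusted p = 0.0291).

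The promoters of 6 of these and related genes are shown to set their motifs beside the direction of their change, and were chosen after their values were seen. They are the 250 bases before the start site in RefSeq's annotation of build GRCm38.p6, 5′ to 3′ on the gene's strand. Capitals mark matches, on either strand, to an NF-kB motif (GGGA and TTCC with any 2 bases between), an AP-1 motif (TGANTCA), an interferon-stimulated response element (GAAA and GAAA with any 2 bases between), a C/EBP motif (TTGCNNAA), a cyclic AMP response element (TGACGTCA) or an E-box (CACGTG), where N is any base. In Cxcl2 the capitals are 2 overlapping matches to the NF-kB motif.
Cxcl2 (chr5:90903649-90903898, plus strand): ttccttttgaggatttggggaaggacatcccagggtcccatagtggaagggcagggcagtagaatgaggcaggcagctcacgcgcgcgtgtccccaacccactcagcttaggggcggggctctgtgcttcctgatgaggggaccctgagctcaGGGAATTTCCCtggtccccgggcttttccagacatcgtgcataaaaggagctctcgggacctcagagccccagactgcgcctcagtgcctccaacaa
Il6 (chr5:30012864-30013113, plus strand): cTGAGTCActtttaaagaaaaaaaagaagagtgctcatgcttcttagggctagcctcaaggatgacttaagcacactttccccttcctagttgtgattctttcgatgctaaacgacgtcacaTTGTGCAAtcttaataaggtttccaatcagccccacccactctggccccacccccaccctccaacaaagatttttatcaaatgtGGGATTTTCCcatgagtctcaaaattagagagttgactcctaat
Ifnb1 (chr4:88522795-88523044, minus strand): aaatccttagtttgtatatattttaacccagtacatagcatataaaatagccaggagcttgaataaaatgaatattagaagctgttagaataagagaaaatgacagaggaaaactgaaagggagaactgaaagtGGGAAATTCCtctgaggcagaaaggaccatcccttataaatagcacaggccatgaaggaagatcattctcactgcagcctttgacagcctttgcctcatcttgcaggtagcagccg
Cxcl10 (chr5:92348890-92349139, minus strand): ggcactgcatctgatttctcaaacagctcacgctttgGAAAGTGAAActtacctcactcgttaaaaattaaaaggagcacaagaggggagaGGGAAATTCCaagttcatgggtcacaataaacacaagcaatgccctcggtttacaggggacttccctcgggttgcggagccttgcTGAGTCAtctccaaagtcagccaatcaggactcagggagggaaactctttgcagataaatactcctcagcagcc
Rsad2 (chr12:26456453-26456702, minus strand): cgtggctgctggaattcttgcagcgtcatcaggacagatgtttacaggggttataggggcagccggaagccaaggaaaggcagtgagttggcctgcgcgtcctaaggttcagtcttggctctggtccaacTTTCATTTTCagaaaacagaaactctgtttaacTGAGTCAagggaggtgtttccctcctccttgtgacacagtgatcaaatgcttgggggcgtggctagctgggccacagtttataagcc
Dusp1 (chr17:26508473-26508722, minus strand): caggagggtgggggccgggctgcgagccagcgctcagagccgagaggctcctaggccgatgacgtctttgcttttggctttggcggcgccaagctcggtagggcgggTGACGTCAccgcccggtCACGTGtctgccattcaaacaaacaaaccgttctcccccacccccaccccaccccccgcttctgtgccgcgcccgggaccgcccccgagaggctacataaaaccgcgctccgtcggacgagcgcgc

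The NF-kB motif stands in the promoters of Cxcl2, Il6 and Ifnb1, which rose, and of Cxcl10, which fell. The interferon-stimulated element stands in those of Rsad2, an antiviral gene that rose, and of Cxcl10. Dusp1, a phosphatase gene that fell, has the cyclic AMP element and the E-box, which none of the other 5 holds. Over all 11822 promoters of 9342 tested genes that could be matched by symbol, leaving out chromosome 18, the NF-kB motif was found in 1.28%, in 1.72% of 2619 promoters of genes called higher in both fits and in 1.12% of 2588 promoters of genes called lower. The AP-1 motif was found in 4.47%, 4.77% and 5.33%, the interferon-stimulated element in 2.91%, 2.63% and 3.71%, the C/EBP motif in 7.64%, 8.36% and 7.88%, the cyclic AMP element in 2.70%, 2.21% and 2.94% and the E-box in 8.56%, 9.58% and 9.27%. These shares describe letters in a window of 250 bases and were not tested.

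Genes that sense LPS and carry its signal moved in both directions. Of 31 tested members of the Toll-like receptor list, 9 rose and 5 fell (10 and 10 without WT library 4), with a median of 0.12 (0.03). These are 29.0% and 16.1%, near the 22.1% of all genes in each direction. The number lower was 3 without KO library 2 or 4 and in the fit of only the 2 groups. Tlr4 itself read 885, 916, 815 and 518 in WT and 539, 498, 483 and 491 in KO libraries. KO libraries overlapped WT library 4 alone, and the gene fell (log2 -0.61 ± 0.13, or -0.79 without it). Cd14, its coreceptor, fell by 0.25 (0.11 without library 4), a call lost without any 1 of the KO libraries with LPS, and Ly96, the gene of MD-2, had 0.12 with library 4, which did not pass, and 0.36 without it, which did. Cd180, a Toll-like receptor homologue, went from 801 ± 359.8 to 2095 ± 50.4 (log2 1.57 ± 0.30) and Tlr13, a sensor of bacterial ribosomal RNA, from 157 ± 49.1 to 365 ± 17.2. Irak3, an inhibitory kinase of the pathway, and Irak2 rose by 0.78 and 0.55. Myd88 and Ticam1, the gene of TRIF, had -0.13 and -0.25, which did not pass, and fell by 0.24 and 0.39 without library 4.

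Subunits and inhibitors of NF-kB fell more often than they rose. Of 18, 3 rose and 9 fell (3 and 11 without WT library 4), which is 16.7% and 50.0% against 22.1% of all genes in each direction, with a median of -0.16 (-0.22). Bcl3 and Nfkbie, both of the inhibitor family, went from 3157 ± 23.3 to 1104 ± 51.8 and from 566 ± 7.01 to 215 ± 13.8. Nfkbia, the classical inhibitor, read 10665, 10699, 11287 and 14696 in WT and 8932, 8944, 9011 and 8812 in KO libraries, with no overlap (log2 -0.39 ± 0.08). Nfkbib went from 1641 ± 304 to 1056 ± 41.7 and Tnip3, which binds the ubiquitin-editing enzyme A20, from 5502 ± 557 to 2408 ± 77.5. Tnfaip3, the gene of A20, fell by 0.53. Of the subunits, Relb fell by 0.74, Nfkb2 by 0.34 and Rela by 0.19. Tnfaip3 and Rela no longer passed in the fit of only the 2 groups, and Rela also lost its call without any 1 of the KO libraries or of WT libraries 1 to 3 with LPS. The nuclear inhibitors Nfkbid and Nfkbiz moved the other way, from 1163 ± 31.6 to 1728 ± 54.2 and from 6544 ± 771 to 8433 ± 134.

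Of 13 MAP kinase brakes, 2 rose and 4 fell (3 and 6 without WT library 4), with a median of -0.37. These are 15.4% and 30.8% of a short list, against 22.1% of all genes in each direction. Dusp1, a nuclear phosphatase of p38 and JNK, read 5132, 5155, 5344 and 5090.4 in WT and 1199.9, 1218, 1219 and 1202 in KO libraries, with a spread small against the difference (log2 -2.10 ± 0.08, limma adjusted p = 1.68e-11). Dusp2 went from 3944 ± 1239 to 1174 ± 21.4. Dusp6, a cytoplasmic phosphatase of ERK, moved the other way, with 413, 394, 407 and 306 in WT and 1401, 1337, 1364 and 1385 in KO libraries (log2 1.86 ± 0.08). Spry2, an inhibitor of receptor kinase signalling, read 83.3, 69.1, 82.7 and 97.5 in WT and 0.652, 2.04, 0 and 0 in KO libraries, which is at most a few reads (log2 -5.80 ± 0.32). Of 13 genes that brake mRNA stability or cytokine signals, 2 rose and 6 fell, in both fits, or 15.4% and 46.2%, with a median of -0.20 (-0.12 without library 4), and none rose in the fit of only the 2 groups. Zfp36, which binds and destabilises mRNA of TNF, read 17608, 16578, 17018 and 18007 in WT and 10484, 10453, 10709 and 10923 in KO libraries (log2 -0.70 ± 0.05). Socs3 and Socs1, inhibitors of cytokine receptors, went from 14969 ± 1236 to 8864 ± 377 and from 187 ± 6.13 to 76.9 ± 7.97.

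Receptors for cytokines moved in both directions, with 8 of 25 higher and 12 lower (8 and 16 without WT library 4), or 32.0% and 48.0% against 22.1% of all genes in each direction, and a median of -0.15 (-0.22). Il21r went from 11.6 ± 0.688 to 75.7 ± 4.79 (log2 2.60 ± 0.19) and Tgfbr1, a receptor of TGF-beta, from 41.3 ± 10.9 to 93.5 ± 4.51. Csf3r, the receptor of granulocyte colony-stimulating factor, went from 28.5 ± 5.24 to 52.3 ± 7.502. Receptors of interferons fell, with Ifngr2 from 1942 ± 129 to 1162 ± 44.1, Ifnar2 from 829 ± 40.3 to 634 ± 9.08, Ifngr1 from 232 ± 14.2 to 177 ± 10.2 and Ifnar1 by 0.42. Il13ra1, a receptor chain of interleukins 4 and 13, went from 2192 ± 312 to 1227 ± 20.8, Il10rb from 580.2 ± 12.7 to 382 ± 10.4 and Tnfrsf1a, the main TNF receptor, from 2755 ± 135 to 1801 ± 60.6. Of 12 chemoattractant receptors, 4 rose and 4 fell in both fits, or 33.3% each. Cx3cr1, the fractalkine receptor, went from 995 ± 239 to 2053 ± 26.5 and C3ar1, of complement C3a, from 4056 ± 859 to 6077 ± 90.8, while Ptafr, of platelet-activating factor, went from 632 ± 108 to 255 ± 20.4 and Ccr2 from 76.97 ± 12.6 to 25.01 ± 4.37.

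Antiviral genes moved in both directions. Of 35 tested type I interferon antiviral genes, 8 rose and 12 fell (8 and 14 without WT library 4), with a median of -0.17 (-0.15). These are 22.9% and 34.3%, of which the share higher is near the 22.1% of all genes. The number higher was 5 without KO library 1, 2 or 3 and with library totals as the scaling, and 4 in the fit of only the 2 groups. Mx1, a GTPase gene, went from 1025 ± 249.6 to 2084 ± 32.2 (log2 1.06 ± 0.20). Rsad2, viperin, read 35273, 37787, 35271 and 30744 in WT and 43629.5, 44696, 42978 and 43435 in KO libraries (log2 0.33 ± 0.07), and Ifih1, the RNA sensor MDA5, went from 8289.6 ± 1399 to 11536 ± 229. Zbp1, a sensor of left-handed nucleic acid, read 3513, 3494, 3604 and 3405 in WT and 2196, 2229, 2255 and 2147 in KO libraries (log2 -0.67 ± 0.09). Irf7, the factor that amplifies interferon genes, went from 13674 ± 482 to 10149.8 ± 87.97, Isg20, an exonuclease, from 2944 ± 735 to 1738 ± 29.2 and Oasl2 from 3527 ± 302 to 2537 ± 79.5. Isg15, a ubiquitin-like protein of a short transcript, read 8406, 7634, 9088 and 17323 in WT and 7161, 7052, 7053 and 6851 in KO libraries. WT library 4 stood far above the others, and the log2 change was -0.51 with it and -0.24 without it. Its call was lost in the fit of only the 2 groups and without KO library 2, 3 or 4.

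Guanylate-binding proteins and IRG GTPases, which attack vacuoles of microbes, numbered 1 higher and 5 lower of 15 (1 and 8 without WT library 4), with a median of -0.35 (-0.46). The number higher was 2 without WT library 2. The shares are 6.7% and 33.3%, against 22.1% of all genes in each direction. Members of these families share sequence, and reads may be split between them. Gbp2 went from 3189 ± 192 to 1639.7 ± 40.7, Gbp3 from 5664 ± 704 to 2960.4 ± 93.8 and Irgm2 from 2436 ± 428 to 1527 ± 18.4. MHC class I genes fell more often than they rose. Of 22, 3 rose and 14 fell (3 and 15), or 13.6% and 63.6%, with a median of -0.45 (-0.37). Tapbp, tapasin, which loads peptides, read 12209.7, 12316, 12426 and 13539 in WT and 7469, 7608, 7814 and 7638 in KO libraries (log2 -0.72 ± 0.05, limma adjusted p = 4.04e-08). Tap1, a chain of the peptide transporter, went from 4225 ± 83.2 to 3384 ± 42.98, and H2-Q4 from 1417 ± 61.1 to 917 ± 50.8. Several members are short transcripts with a high WT library 4, among them the proteasome genes Psmb8, Psmb9, Psmb10, Psme1 and Psme2, whose log2 changes were -0.63, -0.62, -0.69, -0.63 and -0.80 with it and -0.34, -0.34, -0.38, -0.39 and -0.50 without it. None of these 5 passed in the fit of only the 2 groups, which left 8 of the list lower. Calr and Pdia3, chaperones of the endoplasmic reticulum in the same list, rose by 0.36 and 0.39.

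Costimulatory genes split, 5 higher and 5 lower of 11 in both fits, or 45.5% each against 22.1% of all genes. Cd80 and Icosl, ligands of CD28 and ICOS on T cells, went from 229 ± 34.6 to 788 ± 33.3 and from 52.3 ± 16.2 to 258 ± 11.6. Cd40 and Cd83 went from 4159 ± 803 to 2964 ± 22.8 and from 2428 ± 208 to 1645 ± 34.9, and the inhibitory ligands Cd274, the gene of PD-L1, and Vsir, of VISTA, from 1144 ± 159 to 747 ± 12.2 and from 393 ± 11.8 to 139.97 ± 6.11.

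TREM, paired and lectin receptors, which tune myeloid activation through adaptors with activating or inhibitory motifs, rose more often than they fell. Of 35 tested, 18 rose and 7 fell (21 and 8 without WT library 4), with a median of 0.42 (0.49). The share higher was 51.4%, and the share lower, 20.0%, is near the 22.1% of all genes. Trem1, which amplifies inflammation, read 7.11, 13.5, 9.41 and 11.4 in WT and 174, 169, 149.7 and 149 in KO libraries, and Trem3 6.09, 7.12, 5.94 and 14.1 in WT and 114, 119, 126 and 119.5 in KO libraries. Treml2 read 2.03, 3.56, 0.991 and 2.64 in WT and 199, 228, 226 and 224 in KO libraries, so the WT values are a few reads each. These genes are neighbours on chromosome 17, Trem1 at 48371903 to 48386091, Trem3 at 48386896 to 48398213 and Treml2 at 48439363 to 48451859, and Trem2 (48485726 to 48491601) and Treml4 (48403661 to 48414724) of the same cluster rose by 0.54 and 2.67. Cd300lf, a receptor with inhibitory motifs, read 141, 131, 123 and 119 in WT and 891, 854, 857 and 884 in KO libraries (log2 2.75 ± 0.10). Pilra, an inhibitory receptor, and Pilrb1 and Pilrb2, its activating counterparts, rose by 3.97, 4.22 and 4.49, and reads of the last 2 may be split between copies. Pilrb1 and Pilrb2 are not in the fold ranking above, which required a mean of at least 50. The highest WT value of Pilrb2 was 2.64, a few reads, so its change rests on WT values near the floor. Cd200r4 and Cd200r1, of the CD200 receptor family, went from 12.3 ± 4.44 to 36.1 ± 5.05 and from 142 ± 7.902 to 232 ± 15.4, and Clec4e, the sensor Mincle, from 4155 ± 305 to 6271 ± 150.2. Of those that fell, Fcgr4 and Fcgr1, Fc receptors for antibodies, went from 1035 ± 51.3 to 410.2 ± 13.4 and from 7254 ± 563 to 5200.3 ± 87.4, and Pirb, an inhibitory receptor for MHC class I, from 58.4 ± 5.73 to 20.6 ± 7.92.

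Of 15 scavenger and engulfment receptors, 3 rose and 6 fell in both fits. The share higher, 20.0%, is near the 22.1% of all genes, and 40.0% were lower. Gas6, the ligand that bridges dying cells to AXL and MERTK, read 19.3, 19.9, 24.8 and 19.3 in WT and 226, 241, 246 and 244 in KO libraries (log2 3.47 ± 0.07), whereas its receptor Axl went from 623 ± 121 to 334 ± 22.6. Cd36, a scavenger receptor for oxidised lipoprotein, read 6567, 7467, 7033 and 5001 in WT and 1778, 1866, 1654 and 1781 in KO libraries (log2 -1.87 ± 0.11), and Scarf1 249, 243, 246 and 298 in WT and 11.1, 10.9, 8.27 and 14.3 in KO libraries. The groups did not overlap for any of these 4 genes.

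Enzymes of eicosanoid synthesis moved in opposite directions along the pathway. Ptgs1, cyclooxygenase 1, read 17.8, 24.2, 17.8 and 18.4 in WT and 222, 230.1, 236 and 230.4 in KO libraries, an 11.7-fold higher mean (log2 3.50 ± 0.08, limma adjusted p = 1.13e-13). Hpgds, prostaglandin D synthase, went from 108 ± 5.47 to 345 ± 20.2 and Alox5, which starts leukotriene synthesis, from 119 ± 7.38 to 319.8 ± 22.2. Ptges and Tbxas1, which make prostaglandin E and thromboxane, went from 79.3 ± 3.78 to 38.8 ± 7.88 and from 17.7 ± 1.101 to 5.97 ± 2.54, and Ptgs2, the inducible cyclooxygenase, did not pass (log2 0.12 ± 0.10). Of enzymes of arginine, Ass1, which regenerates it, read 362, 327, 351 and 326 in WT and 91.9, 88.9, 84.2 and 95.6 in KO libraries (log2 -1.91 ± 0.21), and Arg2 went from 111 ± 36.3 to 51.7 ± 6.38. Nos2, the inducible nitric oxide synthase, did not pass (log2 0.11 ± 0.13). Over the 19 effector enzymes, 5 rose and 8 fell (6 and 8 without WT library 4), with a median of -0.08 (-0.04). The share higher, 26.3%, is near the 22.1% of all genes, and 42.1% were lower. Among complement and acute-phase genes, Cfb, complement factor B, went from 2185 ± 323 to 825 ± 33.96 and Saa3, serum amyloid A, from 7447 ± 3415 to 2018 ± 27.9. In that list 3 were higher and 2 lower of 10 (3 and 3), or 30.0% and 20.0%.

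Transcription factor genes fell more often than they rose. Of 14 AP-1 and related factors, 4 rose and 9 fell in both fits, or 28.6% and 64.3%, against 22.1% of all genes each way. Their median was -0.62 (-0.61 without WT library 4). Jun read 346, 331, 319 and 306 in WT and 627, 656, 693 and 725 in KO libraries (log2 1.05 ± 0.06), while its partners Fos and Fosl2 and its relatives Junb and Jund went from 779 ± 21.1 to 487 ± 11.1, from 2316 ± 488 to 809 ± 40.6, from 9318 ± 1975 to 4859 ± 246 and from 2054 ± 674 to 957 ± 54.2. Batf, which pairs with JUN proteins, read 1.02, 4.27, 2.48 and 0.878 in WT and 32.6, 36.6, 36.1 and 40.2 in KO libraries (log2 3.69 ± 0.28). Of 39 other factors, 6 rose and 22 fell (7 and 25), or 15.4% and 56.4%, with a median of -0.57 (-0.62).

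Among them, the Krüppel-like factors Klf4, Klf9 and Klf2 went from 117 ± 33.4 to 8.86 ± 4.14, from 39.3 ± 10.9 to 2.88 ± 1.85 and from 77.1 ± 32.5 to 17.9 ± 2.98, and the nuclear receptor Nr4a1 from 168 ± 16.4 to 28.2 ± 6.91. Cebpb and Cebpd, which act with NF-kB in LPS responses, went from 5124 ± 2023 to 1712 ± 51.5 and from 6034 ± 2345 to 2423 ± 98.7, with wide WT spreads. Spi1, the gene of PU.1, the master factor of macrophages, read 5633, 5574, 5859 and 7102 in WT and 4132, 4067, 4204 and 4243 in KO libraries (log2 -0.53 ± 0.07). Runx1 went from 875 ± 202 to 398 ± 25.7 and Mitf from 1184 ± 237 to 661 ± 14.1. Id2 rose, from 177 ± 46.1 to 683 ± 14.5, whereas the related inhibitors Id1 and Id3 fell, from 465 ± 176 to 121 ± 12.02 and from 449 ± 171 to 189.9 ± 16.5. Myc read 1041, 1038, 1072 and 1057 in WT and 1672, 1647, 1683 and 1676 in KO libraries (log2 0.67 ± 0.12), Irf8 went from 2008 ± 58.9 to 2985 ± 101, and Irf1 from 1018 ± 36.2 to 503 ± 12.6.

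Genes of the cell cycle and DNA replication rose more often than they fell. Of 40, 20 rose and 5 fell (25 and 5 without WT library 4), or 50.0% and 12.5% against 22.1% of all genes in each direction, with a median of 0.33 (0.29). Cdc6, which loads the replicative helicase, read 53.3, 59.1, 60.4 and 56.2 in WT and 141, 142, 132 and 151 in KO libraries (log2 1.29 ± 0.06), and Ccne1, cyclin E, 60.9, 71.9, 66.8 and 86.98 in WT and 156, 209.7, 187 and 163 in KO libraries. The helicase subunit genes Mcm2, Mcm3, Mcm4, Mcm5, Mcm6 and Mcm7 rose by 0.83, 0.51, 0.78, 0.44, 0.77 and 0.48 on the log2 scale. Cdkn1b and Cdkn2c, inhibitors of cyclin-dependent kinases, went from 311 ± 23.1 to 167 ± 10.3 and from 127 ± 18.6 to 85.2 ± 7.48, while Cdkn1a rose by 0.30, a call lost in the fit of only the 2 groups. Of the genes of mitosis, Ccnb1, Cdk1, Plk1 and Top2a had 0.03, -0.18, 0.15 and 0.22, of which none passed. Without LPS, all KO libraries were below all WT libraries for 18 of the 40 genes and above them for 9, where 27.3% and 27.9% of all genes were. Cdc6, Mcm4 and Mcm7 were among the 18, and the difference between the effects with and without LPS was not tested. For Mcm7 the WT mean was 1836 ± 42.9 and the KO mean 1575 ± 11.2 before LPS, against 431 ± 23.6 and 601 ± 31.4 after it. For Mcm6 these means were 2751 ± 89.4 and 2897 ± 78.8 before and 859 ± 39.9 and 1462 ± 31.9 after.

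Genes of glycolysis and the hypoxia response fell more often than they rose. Of 28, 3 rose and 18 fell (4 and 20 without WT library 4), or 10.7% and 64.3% against 22.1% of all genes in each direction, with a median of -0.35 (-0.32). Pfkfb3, whose product drives glycolytic flux, read 5154, 5087, 4557 and 2481 in WT and 2173, 2199, 2375 and 2304 in KO libraries (log2 -0.88 ± 0.17, or -1.12 without library 4). Pfkl, phosphofructokinase, and Tpi1 went from 3367 ± 436 to 1773 ± 67.6 and from 9556 ± 1608 to 6395 ± 209, and Ankrd37, a target of hypoxia-inducible factor, from 109.6 ± 41.5 to 21.2 ± 5.34. Hif1a itself rose by 0.38, a call lost in the fit of only the 2 groups. Gapdh also stands among the risen genes, at 35.2 ± 8.33 and 75.8 ± 8.49, but its value is uncertain, since reads could be split between it and its processed copies. Of 25 oxidative phosphorylation genes, 1 rose and 6 fell (4 and 8), and their median moved from -0.22 to -0.04 without WT library 4. The share lower, 24%, is near the 22.1% of all genes, and the number lower was 11 without WT library 2 and 2 in the fit of only the 2 groups.

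Lipid genes were divided. Of 30 genes of cholesterol and fatty acid synthesis, 11 rose and 9 fell (12 and 13 without WT library 4), with a median of 0.02 (-0.02). That is 36.7% and 30.0%, against 22.1% of all genes in each direction. In the fit of only the 2 groups 5 were higher and 3 lower. Those of fatty acid synthesis, Fasn, Elovl6 and Acaca, went from 2255 ± 791 to 4273 ± 119, from 84.7 ± 7.09 to 178 ± 9.28 and from 289.5 ± 64.4 to 413 ± 16.8. Of the sterol genes, Stard4 and Fdps went from 456 ± 17.3 to 300.2 ± 16.1 and from 1574 ± 470.2 to 1079 ± 30.7, while Dhcr7 went from 94.2 ± 12.8 to 166 ± 6.74. Fdps no longer passed in the fit of only the 2 groups. Srebf1, the gene of the factor SREBP-1, fell by 0.41. Of 18 genes of LXR and cholesterol efflux, 3 rose and 10 fell (3 and 11), or 16.7% and 55.6%, with a median of -0.40 (-0.40). Abca1, the efflux pump, read 885, 923, 758 and 499 in WT and 228, 261, 259 and 212 in KO libraries (log2 -1.63, or -1.82 without library 4). Nr1h3, the gene of LXR-alpha, went from 99.3 ± 17.5 to 40.2 ± 2.65, and the fatty acid carriers Fabp4 and Fabp5 from 87.2 ± 38.8 to 346 ± 24.2 and from 261 ± 66.9 to 699 ± 24.02.

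The integrated stress response, a programme led by ATF4 that raises amino acid supply, had more genes lower than higher in KO cells with LPS. Of 26 tested genes, 2 rose and 15 fell (3 and 18 without WT library 4), with a median of -0.20 (-0.22). The shares are 7.7% and 57.7%, against 22.1% of all genes in each direction, and without any 1 of the KO libraries with LPS the number higher was 1. Atf4 read 6183, 6137, 6955 and 10076 in WT and 4236, 4152, 4173 and 4281 in KO libraries (log2 -0.77 ± 0.12, or -0.60 without library 4). Atf5, a related factor, read 712, 656, 654 and 691 in WT and 261, 231, 289.6 and 286 in KO libraries (log2 -1.35 ± 0.09), and Trib3, a pseudokinase that damps the response, 145, 133, 143 and 166 in WT and 88.6, 91.6, 88.7 and 94.7 in KO libraries (log2 -0.68 ± 0.08). Cars, the transfer RNA synthetase of cysteine, went from 1443 ± 123 to 977 ± 32.96. In the libraries without LPS, KO libraries lay above all WT libraries for 26 of the 26 genes, where 27.9% of all genes did so. Atf4 there averaged 3173 ± 165 in WT and 5019 ± 147 in KO cells, and Trib3 97.9 ± 9.75 and 829.7 ± 36.7. The difference of the KO effect between cells with and without LPS was not tested for these genes.

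Genes of oxidative stress and iron rose in 11 of 17 cases, with 3 lower (11 and 4 without WT library 4) and a median of 0.45 (0.43). The share higher was 64.7% and the share lower 17.6%, against 22.1% of all genes in each direction. Srxn1, sulfiredoxin, and Gclm, of glutathione synthesis, went from 417 ± 58.4 to 807 ± 10.2 and from 511 ± 26.8 to 693 ± 11.8, and Tfrc, the transferrin receptor, from 5211 ± 769 to 7414 ± 57.8. Fth1 and Ftl1, the ferritin chains, read 50856, 59883, 62994 and 120453 and 11653, 11546, 12454 and 18042 in WT and 115751, 123453, 115502 and 116257 and 18275, 18469, 18770.3 and 18165 in KO libraries. For Fth1 WT library 4 overlapped the KO libraries, and its log2 change was 0.76 with it and 1.03 without it. The metallothioneins Mt1 and Mt2 of this list fell.

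Lysosomal genes rose in 13 of 26 cases and fell in 1 (17 and 1 without WT library 4), or 50.0% and 3.8% against 22.1% of all genes in each direction, with a median of 0.18 (0.21). The number lower was 2 without WT library 1 or 2. Gpnmb, a glycoprotein of lysosomes, read 1015, 1016, 1030.4 and 718 in WT and 11310.1, 11173, 11279 and 11214 in KO libraries. Ctsc, the protease cathepsin C, read 2923, 2831, 2974 and 2495 in WT and 7625, 7857, 7611 and 7341 in KO libraries (log2 1.44 ± 0.05), and Atp6v0d2, a subunit of the proton pump, 26.4, 32.04, 24.8 and 20.2 in WT and 92.5, 90.9, 66.2 and 95.6 in KO libraries (log2 1.70 ± 0.14). The groups did not overlap for these 3 genes. Lipa, acid lipase, and Gusb went from 2714 ± 614 to 4301 ± 137 and from 2604 ± 153 to 3944 ± 35.3. Without LPS, 22 of the 26 had all KO libraries above all WT libraries, where 27.9% of all genes did. The osteoclast genes Ctsk and Dcstamp went from 87.03 ± 21.7 to 172 ± 10.5 and from 202 ± 40.6 to 299 ± 6.91, and Ocstamp from 71.8 ± 4.06 to 21.6 ± 3.497.

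Genes of inflammasomes and cell death fell in 13 of 30 cases and rose in 5 (15 and 6 without WT library 4), with a median of -0.12 (-0.10). That is 43.3% lower and 16.7% higher, against 22.1% of all genes in each direction. The number higher was 8 without WT library 2 and 3 in the fit of only the 2 groups. Ripk3, a kinase of necroptosis, read 694, 681, 751 and 713 in WT and 278, 263, 298 and 243 in KO libraries (log2 -1.39 ± 0.08). Casp1, Casp4 and Gsdmd, which carry out pyroptosis, went from 1785 ± 384 to 1100.4 ± 40.2, from 1618 ± 329 to 1022 ± 28.7 and from 1434 ± 79.6 to 924 ± 21.98, and Bcl2l11 and Pmaip1, which promote apoptosis, from 875 ± 94.4 to 467 ± 18.9 and from 248 ± 52.5 to 125 ± 6.89. Nlrp3, the inflammasome sensor, rose, from 4069 ± 749 to 6502 ± 169.7, as did Bid, from 762 ± 19.3 to 1303 ± 31.3.

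Matrix and coagulation genes held some of the largest changes in both directions. Of 32 tested, 9 were higher and 12 lower (10 and 13 without WT library 4), or 28.1% and 37.5%. Of all genes, 22.1% were called in each direction. Mmp9, a gelatinase, read 1013, 1045, 1004 and 844 in WT and 5089.6, 5334, 5298 and 5034 in KO libraries (log2 2.41 ± 0.08), and Mmp13, a collagenase, 82.3, 81.2, 83.7 and 86.1 in WT and 389, 357, 323 and 371 in KO libraries (log2 2.10 ± 0.20). Mmp14, a membrane protease that activates other matrix proteases, moved the other way, with 1180.04, 1036, 1099 and 1419 in WT and 71.01, 54.97, 66.2 and 59.3 in KO libraries (log2 -4.21 ± 0.16). Timp1, an inhibitor of these proteases, went from 446 ± 162 to 53.7 ± 4.38. Plau, urokinase, read 155, 135, 166 and 192 in WT and 1234, 1138, 1229.7 and 1154 in KO libraries (log2 2.88 ± 0.08). The groups did not overlap for any of these 5 genes. F3 and F10, tissue factor and coagulation factor X, went from 103 ± 15.1 to 38.6 ± 3.61 and from 91.4 ± 6.88 to 9.94 ± 1.25.

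**Figure D4:**
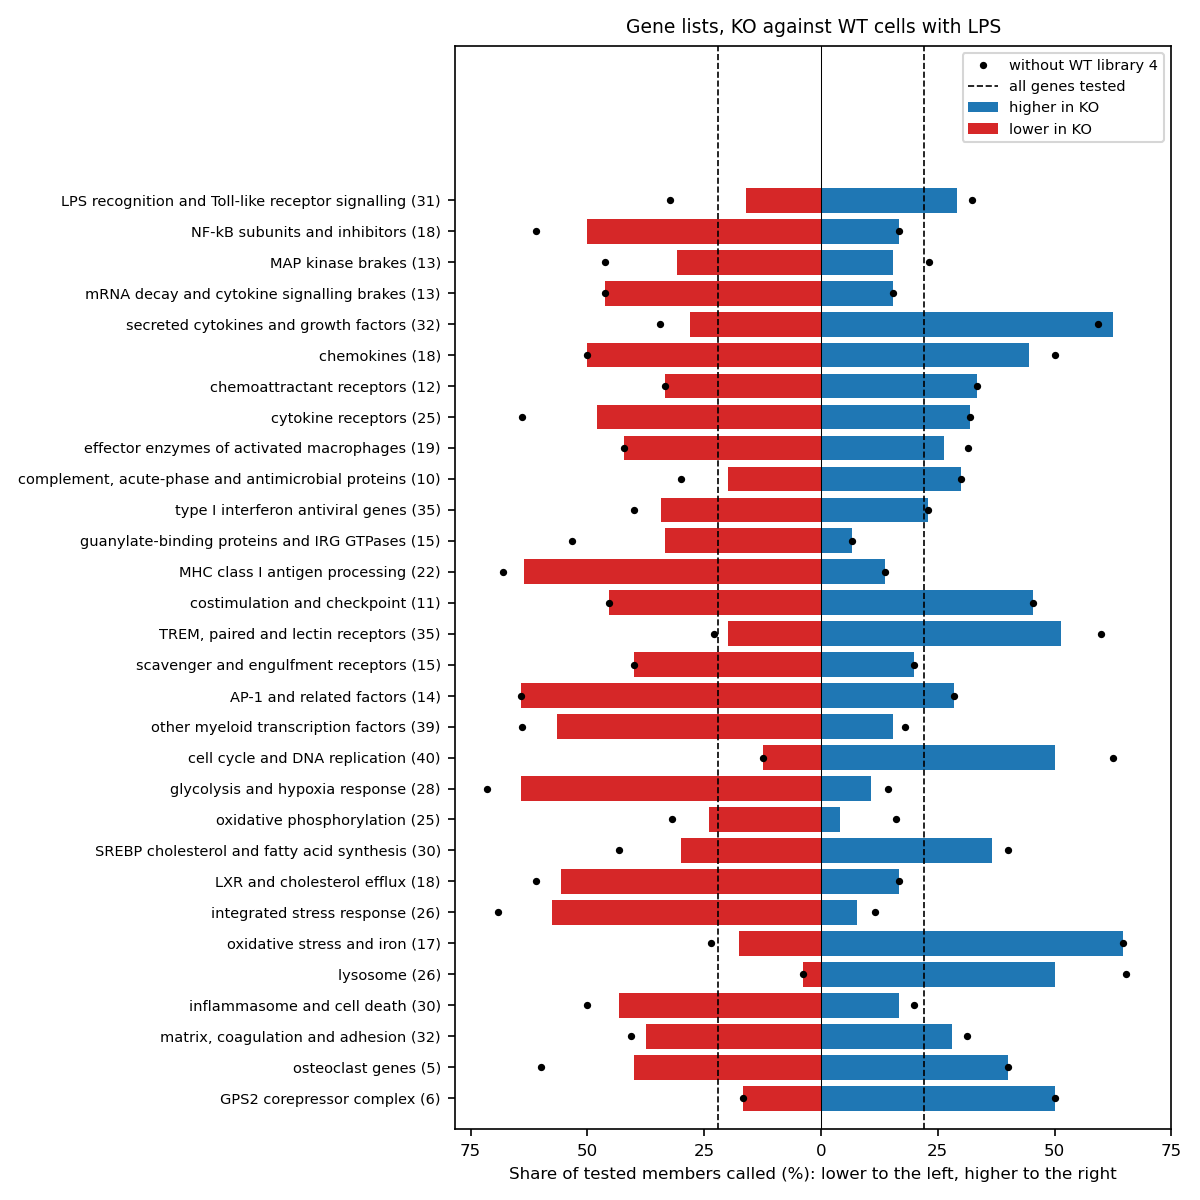
Share of the tested members of each of the 30 gene lists (vertical axis, with the number tested) that were higher (blue, to the right) or lower (red, to the left) in KO cells with LPS, in percent (horizontal axis), at a limma adjusted p under 0.05. Points mark the same shares without WT library 4, and the dashed lines mark the 22.1% of all genes tested in each direction. Chemokines pass the line on both sides, lysosomal genes to the right and glycolysis and MHC class I genes to the left.

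Beside the cells without LPS, the leading genes showed several patterns. Before LPS, Nedd9 averaged 2.66 ± 1.08 in WT and 91.3 ± 6.58 in KO cells, and after it 3.505 ± 1.07 and 94.5 ± 3.56, so each genotype kept its level. Ptgs1 averaged 164 ± 5.09 and 1164 ± 52.7 without LPS and was lower with LPS in both genotypes, at 19.6 ± 3.11 and 229.7 ± 5.76. Gas6 had the same order, 99.1 ± 4.14 and 1356 ± 19.9 without LPS and 20.8 ± 2.64 and 239 ± 8.998 with it. Csf2 averaged 0.692 ± 0.733 and 6.79 ± 1.88 without LPS, with the WT value near that of a single read, so KO cells averaged more both without and with LPS. Mmp13 averaged 0.2603 ± 0.301 and 0.327 ± 0.404 without LPS, under the value of a single read in both genotypes, and its difference was measurable with LPS alone. Mmp14 averaged 5.49 ± 0.521 and 0.1403 ± 0.281 without LPS and 1183 ± 168 and 62.9 ± 7.13 with it. Among genes called in both fits, 1436 of the 2546 that were higher with LPS also had all KO libraries above all WT libraries without LPS, and 1520 of the 2501 that were lower had all of them below. Over all genes tested, the libraries without LPS did not overlap for 27.9% (KO above) and 27.3% (KO below).

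**Figure D5:**
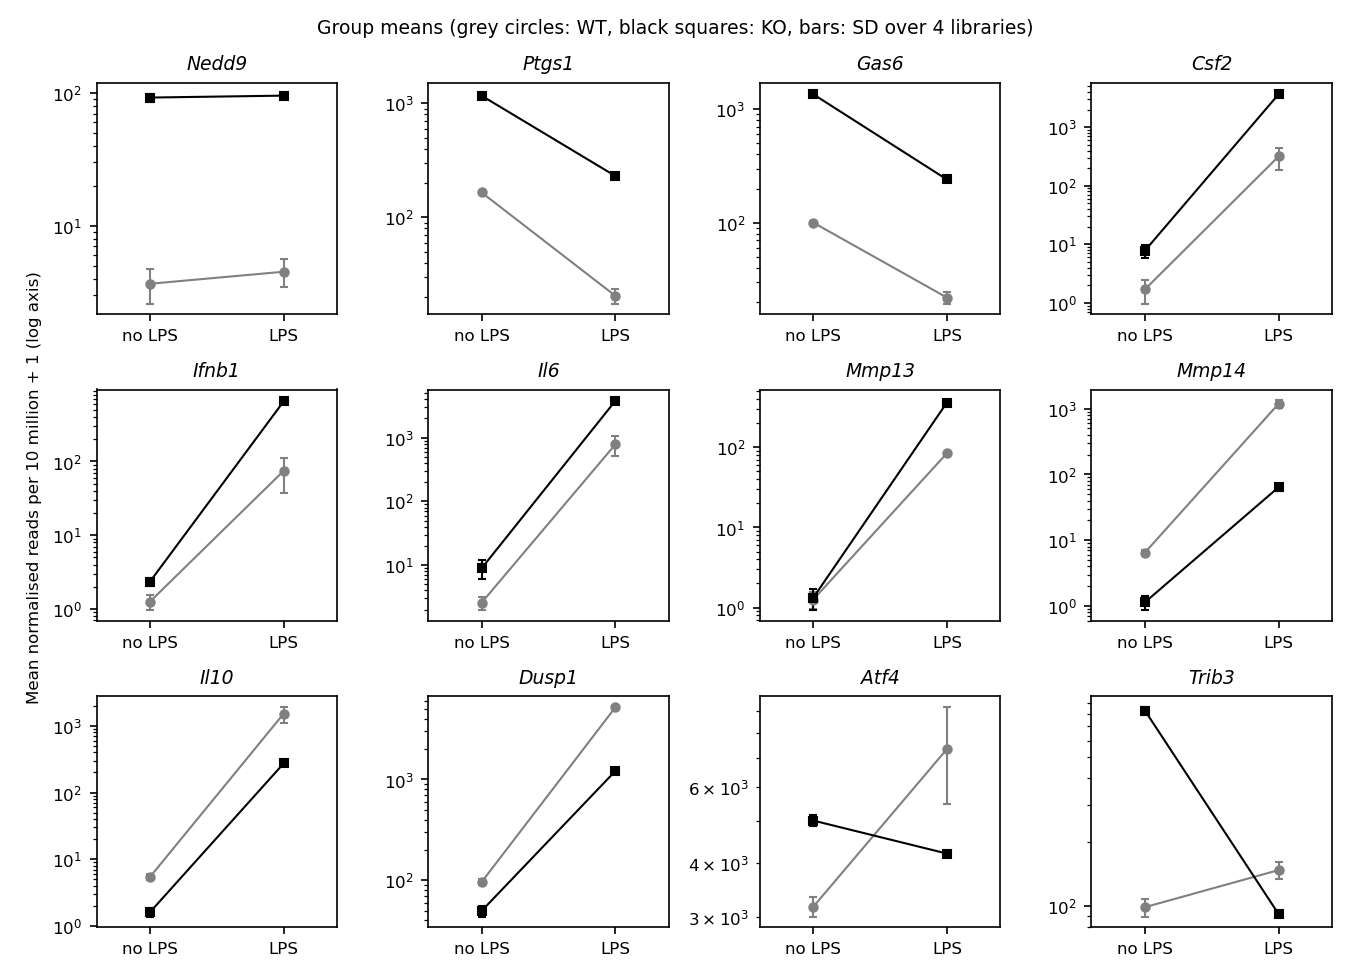
Mean normalised reads per 10000000 (log axis, mean plus 1) of 12 genes in the 4 RNA-seq groups. Grey circles joined by a line are WT cells and black squares KO cells, without LPS at left and with LPS at right, and bars show the SD over 4 libraries. Nedd9 stays level in each genotype, Mmp13 parts with LPS, Csf2 is higher in KO cells at both points, and Atf4 and Trib3 are higher in KO cells without LPS and lower with it.

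Chromatin was measured in the same 2 genotypes at 2 h of LPS, with the sites of RNA polymerase II, the Mediator subunit MED1 and the factors PU.1 and JunB, 2 libraries per group. The 2 libraries agree within sampling noise (chi-square per region of 0.823 to 1.103), so each group counts as 1 sample, values are means of the 2 and no test is given. KO libraries held fewer of their reads in the listed regions, most of all for RNA polymerase II, where the median log2 ratio of KO to WT over all regions was -1.81. Changes are therefore given relative to the median of all regions of a protein. At regions whose nearest gene was called higher in RNA in both fits, the median of RNA polymerase II was 0.01 relative to all 23360 regions, and at those of genes called lower 0.07. These 2 medians were 0.01 and -0.03 for MED1, -0.05 and -0.08 for PU.1 and -0.05 and -0.09 for JunB. Genes that rose and genes that fell in RNA at 6 h were thus close to each other in these medians at 2 h.

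Of the 12 genes with the largest linear increase in RNA reads, 11 had RNA polymerase II regions, 9 of them above the median change of all regions. Of the 12 with the largest linear decrease, 11 had regions and 10 were above it. Of the 10 with the largest fold increase, 5 had regions and 4 were above it, and of the 10 with the largest fold decrease, 8 had regions, of which 2 were above and 6 below it. The median changes of these 4 sets, relative to all regions, were 0.79 and 0.91 by linear difference, higher and lower, and 1.23 and -0.74 by fold. Il1a regions summed to 25.4 and 22.5 in WT and 112 and 89.5 in KO libraries, and Cxcl2 regions to 366 and 386 against 859 and 898. Both genes rose in RNA. Ccl5, whose RNA fell, had 64.5 and 66.6 in WT and 2036 and 1953 in KO libraries, and Il1rn, which also fell, 321 and 337 against 719 and 732. These 4 genes and the following 2 were picked after their values were seen. Lyz2, whose RNA rose, had 16547 and 16176 in WT and 562 and 579.8 in KO libraries. Spry2, nearly absent from KO RNA, had 529.8 and 507 in WT and 19.1 and 15.5 in KO libraries.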

How the data were processed

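PolyA RNA-seq of RAW264.7 cells was deposited by the authors as 1 table of RefSeq transcripts on build mm9, 1 row per gene symbol, in reads per 10000000 mapped reads (per the file headers). The submitters' processing notes name Bowtie2, HOMER, BWA, HISAT2, DESeq2, MACS2 and edgeR. Which of these made this table is not given in the sources used here. Whole reads could be recovered by dividing by the value of 1 read, and all low values were whole within 0.05. The groups came from the labels, with 4 libraries in each. Values were scaled with trimmed-mean factors, and genes with few reads were left out (the equivalent of 10 reads at the median depth in at least 4 libraries, and 15 reads in all, were required), leaving 11791 of 14378. All 16 RNA libraries entered 1 limma 3.58.1 fit (R 4.3.3, trend and robust) on log2 of the value plus 1, which understates the change of low genes, and Benjamini-Hochberg adjusted p-values under 0.05 were called. The fit was tested on simulated reads with the same spread for every gene and no length bias, so that check does not cover WT library 4. Count tests planned on whole reads were not run, and voom on the recovered reads was used in their place. The 8 columns of rescaled copies were not used. Chromatin tables, deposited by the authors as reads per region per 10000000, were described without a test. Genes were named as the 12 with the largest linear difference and the 10 with the largest log2 change (higher mean of at least 50) in each direction, called with and without WT library 4 and with groups that do not overlap, and as members of 30 lists, of which a few are not reported here by name. The comparison and the lists were chosen with earlier results of these data known. Alternatives changed the scaling, pseudocount (0.5 and 5), filter, libraries, groups fitted, weights and length correction.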

Additional observations from a re-analysis of the deposited data

Results flagged for a closer look

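In groups of 4 libraries, a value was marked where its gap to the nearest other value divided by the range of the group exceeded Dixon's critical value. Of 496 groups, 2 for each of the 248 genes named in the text, 83 were marked, and chance marks about 1 in 20. WT library 4 with LPS accounts for 55 of these. It read above the other 3 WT libraries, in normalised reads, for Ankrd37 171, Ccl17 81.7, Ccl4 50879, Ccl7 6169, Cebpb 8139.98, Cebpd 9544, Ctsk 119, Dcstamp 263, Dll1 69.4 and Dusp2 5785. It was also above them for Ebi3 1225, Fdps 2275, Ftl1 18042, Gps2 496, Hdac3 924, Id1 728, Il18 1242, Il6 1182, Isg15 17323 and Isg20 4038. Further high values of it were Jund 3060.1, Mt1 24719.5, Mt2 41532, Nfkbia 14696, Nfkbie 576, Pilrb2 2.64, Psmb10 5235, Psmb8 5171, Psmb9 1261 and Psme1 6182. It stood above them in Psme2 3409, Rpl8 32539.7, S100a4 29955, Saa3 12514, Scarf1 298, Slpi 137, Tapbp 13539, Timp1 687, Trem2 975 and Trem3 14.1. It read below the other 3 for Cd180 267, Cfb 1704, Cmpk2 21219, Gapdh 22.8, Gja1 308, Gpnmb 718, Ifih1 6216, Il13ra1 1726, Mx1 653 and Myd88 2350.2. Further low values of it were Nlrp3 2951, Rela 579, Tfrc 4068, Tnfrsf1a 2554 and Tnfsf15 25.5. The remaining 28 marked values were in other libraries. In KO library 1 with LPS they were Irf7 10018 and Treml2 199. In KO library 2 with LPS they were Ccl3 143225, Ccl4 26205, Cd14 33940.3, Cdkn1b 183, Fth1 123453, Lpl 43374 and Tnf 25110.4. In KO library 3 with LPS they were Atp6v0d2 66.2, Id2 662, Nfkbib 1118, Tbl1x 734 and Tnfrsf1a 1892. In KO library 4 with LPS they were Ccl17 150.1, Cd80 838, Elovl6 192, F3 43.99, Fosl2 869, Mcm7 554, Mitf 639.7, Mt1 4485 and Treml4 12.4. In WT library 1 with LPS they were Ccnb1 623, Edn1 861 and Il18bp 136. In WT library 2 with LPS they were Ptgs1 24.2. In WT library 3 with LPS they were Gas6 24.8. 

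For 28 of the genes named, the 4 KO libraries lay on one side of the 4 WT libraries with LPS and on the opposite side without LPS. The difference between the genotype effects with and without LPS was not tested. Those higher in KO cells with LPS and lower without it were, with the log2 change with LPS, Cdc6 1.29, Cx3cr1 1.08, Elovl6 1.07, Gclm 0.44, Id2 1.98, Lpl 0.57, Mcm4 0.78, Mcm7 0.48, Myc 0.67 and Pdgfb 0.93. Those lower in KO cells with LPS and higher without it were Abca1 -1.63, Atf4 -0.77, Atf5 -1.35, Cars -0.56, Casp4 -0.64, Ccl9 -0.38, Cd14 -0.25, Cd274 -0.60, Cd83 -0.56 and Cebpd -1.25. Also of this kind were F10 -3.08, Fcgr1 -0.48, Ifnar2 -0.39, Il10rb -0.60, Il1rn -0.39, Ptafr -1.29, Saa3 -1.79 and Trib3 -0.68.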

How the results depend on the processing

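Fitted alone, the 2 groups gave 1528 genes higher and 1598 lower, against 2600 and 2603 with all 16 libraries, and 3209 and 3224 once WT library 4 was also left out. In the fit of the 2 groups with library 4 kept, 16 of the 248 named genes no longer passed, namely Cd14, Cdkn1a, Fdps, Hif1a, Isg15, Ldha, Psmb10, Psmb8, Psmb9, Psme1, Psme2, Rela, Rpl8, Tbl1x, Tbl1xr1 and Tnfaip3. All other alternatives stayed within 1.5 times of both counts: library totals gave 2393 and 2740, median-of-ratios factors 2670 and 2541, library weights 3284 and 3248, and removal of the length trend 3056 and 3065. Leaving out 1 library at a time gave 2323 to 3470 genes higher and 2208 to 3386 lower, the highest of each without WT library 4. Deviations of same-numbered WT and KO libraries with LPS from their group means correlated by -0.06 to 0.04. The WT deviations carry the length bias of WT library 4, so these values cannot tell whether the replicate numbers pair the libraries. With the replicate number as a block, 2461 genes were higher and 2450 lower. Without 1 of the KO libraries with LPS, up to 5 of the named genes no longer passed, with log2 changes of -0.24, -0.25, -0.23 and -0.23 for Cd14, -0.16, -0.20, -0.18 and -0.18 for Rela and 1.01, 1.00, 0.98 and 1.01 for Tbl1x, each without KO libraries 1 to 4, and Isg15 and Tbl1xr1 in some of them. Without WT library 3 with LPS, Cd14, Rela and Tbl1xr1 did not pass (-0.25, -0.16 and 0.31), and without WT library 2, Ncor1, Plk1 and Top2a passed (0.68, 0.21 and 0.32). Leaving out 1 library at a time, log2 changes ran from -0.262 to 0.183 for Ccl4, -0.112 to 0.06002 for Hdac3 and -0.0411 to 0.199 for Nos2. None of the 3 genes whose sign turned had passed the test in the main fit. With its sign turned, Ccl4 passed in the settings listed below (limma adjusted p = 0.0094 to 0.029) except removal of the length trend (0.0536). Hdac3 and Nos2 passed in none of theirs. Ccl4 was 0.177 with a fit of only the 2 groups without WT library 4, 0.203 with library weights, 0.176 with the trend on transcript length removed, 0.184 with voom without WT library 4, 0.204 with library weights in a fit of only the 2 groups and 0.183 with the same fit without WT library 4. Hdac3 was 0.0533 with a fit of only the 2 groups without WT library 4, 0.0555 with library weights, 0.00198 with the trend on transcript length removed, 0.0587 with voom without WT library 4, 0.0549 with library weights in a fit of only the 2 groups and 0.06002 with the same fit without WT library 4. Nos2 was -0.0478 with a fit of only the 2 groups without WT library 4, -0.042 with library weights, -0.0391 with voom without WT library 4, -0.044 with library weights in a fit of only the 2 groups and -0.0411 with the same fit without WT library 4. The cause was not tested. Voom on recovered reads, with and without WT library 4, and library weights in the smaller fit were chosen after seeing the data. The 3 planned count tests were not run, and voom on recovered reads (2579 genes higher, 2545 lower) took their place. Sequencing depth limits genes near 1 read, such as Spry2 and Treml2.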
